A study of Arabidopsis thaliana with 9 samples.

Results

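XTH33 and EXLA1 are a pair of plant cell wall genes that were measured in an array study of histone deacetylase 6 (HDA6) mutants of Arabidopsis thaliana. They were found by gene symbol in the probe annotation, and each had 1 probe set, so they make up 2 of the 22746 probe sets left after control sets were removed. XTH33 (locus AT1G10550, chromosome 1) is annotated as a xyloglucan:xyloglucosyl transferase. EXLA1 (locus AT3G45970, chromosome 3) is annotated as expansin-like A1. Neither probe set carries the suffix that marks a set shared between related sequences. Both genes were chosen by their measured signals, as the largest falls of the amino acid substitution group below the double transformant, and for their wide spread in the double transformant arrays. Their differences are therefore given as descriptions, without a test.

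The 9 arrays formed 3 groups of 3, all from whole plants of strain Col-0 grown for 35 days at 21 ºC in constant light on Murashige and Skoog medium. The null mutant and the amino acid substitution group both came from the source named rts1-1, with an EMS-induced mutation in HDA6, and only the titles tell them apart. The double transformant came from the source named Columbia, with no HDA6 mutation named, and the labels do not say which constructs it holds. HDA6 removes acetyl groups from histones and takes part in gene silencing. HDA6 had no named probe set here, so its own level was not analysed.

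The primary wall of a growing plant cell is a network of cellulose microfibrils, xyloglucan and pectin that has to loosen before the cell can enlarge. Enzymes of the XTH family cut xyloglucan chains and rejoin them to other chains or to water. Expansins loosen walls without cutting them and are best known from growth at low pH. Expansin-like proteins such as EXLA1 share the domains of expansins, but an activity on walls is not established for them. Both families are large, and their genes are known to respond to hormones, light and mechanical stimuli.

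The array values are linear MAS5 signals, scaled by the authors to a common level per array, with array medians between 31.8 and 36.8. Before taking log2, an offset c of 4.03 was added to every signal, equal to the 20th percentile over the arrays. One limma model over the 9 arrays then gave the differences. On this scale the change of a dim probe set is understated. An adjusted p under 0.05 over all 22746 probe sets counted as a call. Whether replicates were grown as separate cultures is not stated, so every error and p-value here covers array-to-array spread alone, and that spread may be technical. The title of 1 array in each group ends in rpt, a mark the labels do not explain: null mutant 1, substitution array 3 and double transformant 1. Double transformant 1 also differed from the other 8 arrays in a night humidity of 35% in place of 53%. In bulk RNA of whole plants, fewer cells of a type and less RNA per cell cannot be told apart.

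XTH33 was lowest in the substitution group, intermediate in the null mutant and highest in the double transformant. Its signals were 39.5, 74.7 and 62.6 in null mutant replicates 1 to 3. They were 19.8, 15.1 and 37.5 in the substitution group, replicates 1 to 3, and 92.2, 343 and 225 in the double transformant. No groups overlapped for XTH33, although null mutant 1 at 39.5 lay close above substitution array 3 at 37.5.

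The group means of XTH33 were 58.9 ± 17.9 in the null mutant, 24.1 ± 11.8 in the substitution group and 220 ± 125 in the double transformant (SD, n = 3 each). The mean signal of the substitution group was 9.12-fold below that of the double transformant, with a fitted log2 difference of -2.89 ± 0.43 (SE), the lowest of all 22746 probe sets. The null mutant mean was 3.74-fold below the double transformant, with a log2 difference of -1.69 ± 0.43. Between the mutants, the null mutant minus the substitution group gave 1.20 ± 0.43. XTH33 lay below the median signal of the array on substitution arrays 1 and 2 (34.1 and 34.9), so the fold rests on dim signals there.

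EXLA1 had the same order of group means. Its signals were 202, 158 and 264 in null mutant replicates 1 to 3. In the substitution group they were 70.2, 43.3 and 162 in replicates 1 to 3, and in the double transformant 326.5, 1172 and 561. All 3 arrays of each mutant group lay below the lowest double transformant array. The mutant groups themselves overlapped, since null mutant 2 at 158 was below substitution array 3 at 162.

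The means of EXLA1 were 208 ± 53.1 in the null mutant, 91.9 ± 62.4 in the substitution group and 686 ± 436 in the double transformant (SD, n = 3 each). The substitution mean was 7.47-fold below the double transformant, a log2 difference of -2.85 ± 0.47, second to XTH33 among all probe sets. The null mutant was 3.3-fold below the double transformant, at -1.54 ± 0.47. The null mutant minus the substitution group gave 1.31 ± 0.47 for EXLA1, a difference whose arrays were not fully apart. The comparisons with the null mutant share the double transformant or the substitution arrays on which both genes were chosen, so they too are descriptions without a test.

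**Figure D1:**
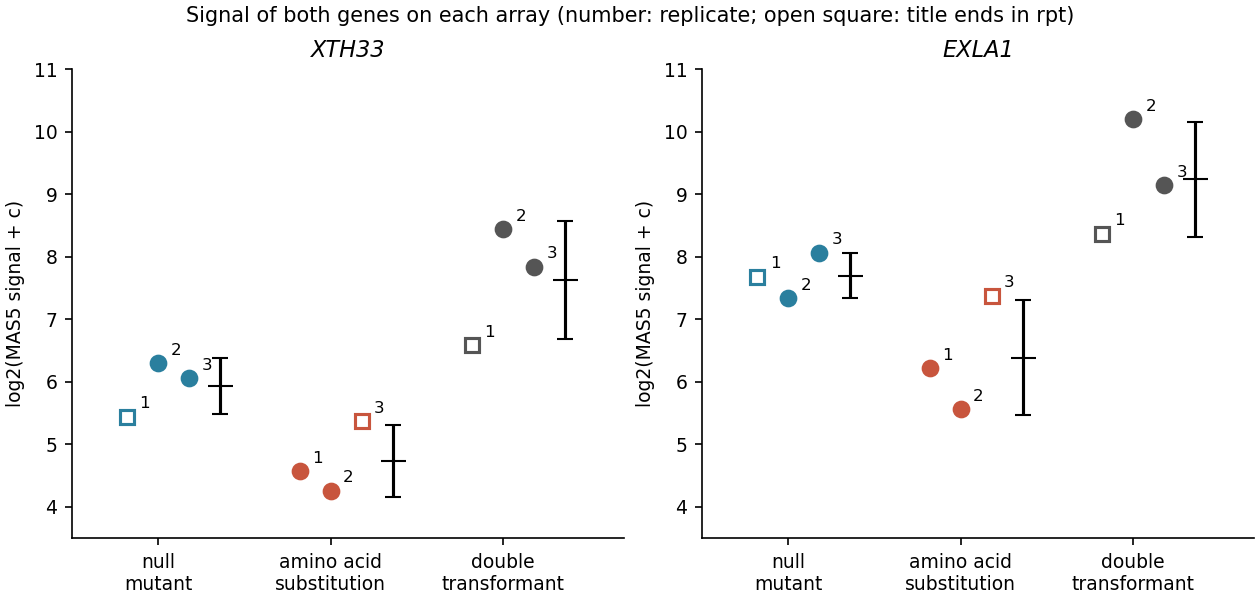
Signal of XTH33 (left) and EXLA1 (right) on each of the 9 arrays, as log2(MAS5 signal + c) with c = 4.03 on the vertical axis, by group; the number beside a point is the replicate, open squares are arrays whose title ends in rpt, and bars give the mean ± SD of 3 arrays. Both genes sit highest in the double transformant, and XTH33 separates all 3 groups, while for EXLA1 substitution array 3 (162) lies just above null mutant 2 (158).

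Groups that did not overlap were common on these arrays. Between the substitution group and the double transformant, 19.2% of all probe sets had no overlap, 8.6% lower and 10.6% higher in the substitution group. For the null mutant against the double transformant the share was 13.7%, with 5.49% lower and 8.19% higher. For the null mutant against the substitution group it was 11.7%, with 5.6% lower and 6.06% higher, and XTH33 was among those that were higher. The log2 differences of the null mutant put XTH33 at rank 16 and EXLA1 at rank 30 from the lowest of 22746. Just outside the choice, the next falls called in the substitution group were -2.76 for a probe set with no gene name here, -2.25 for the pseudogene AT4G16870 and -2.18 for AT4G16563, against -2.89 and -2.85 for XTH33 and EXLA1.

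The spread of both genes within groups was wide for their level. In the double transformant the highest XTH33 signal was 3.72 times the lowest, and its SD on the log2 scale was 0.94. Among the 2418 probe sets within 0.5 of its mean in that group, the median SD was 0.17, and XTH33 exceeded or equalled 99.7% of them. EXLA1 spread 3.59-fold in the double transformant, with an SD of 0.92 that reached the 99.9th percentile of 857 probe sets of like level. Wide spread in the double transformant was part of the choice, so these ranks only describe it.

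Outside the double transformant the spread differed between the genes and groups. In the substitution group EXLA1 again spread 3.75-fold (log2 SD 0.92, 99.6th percentile of 3554 probe sets of like level), and XTH33 spread 2.48-fold (log2 SD 0.58, 94.5th percentile of 2958). The null mutant was the tightest group for both, at 1.89-fold for XTH33 and 1.67-fold for EXLA1, with log2 SDs of 0.44 and 0.36. The lowest coefficient of variation was thus 25.5%, for EXLA1 in the null mutant, and the highest was 67.9%, for EXLA1 in the substitution group.

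The arrays with rpt in their titles lay on the inner side of the gap between substitution group and double transformant. Substitution array 3 was the highest of its group and double transformant 1 the lowest of its group, for both genes. Between those single arrays XTH33 was at 37.5 in the substitution group and 92.2 in the double transformant, a log2 difference of -1.21. The remaining arrays, 2 a group, averaged 17.5 in the substitution group and 284 in the double transformant, a difference of -3.72. For EXLA1 the single rpt arrays stood at 162 in the substitution group and 326.5 in the double transformant (-0.99). Its other arrays averaged 56.7 in the substitution group and 866 in the double transformant (-3.78).

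The direction was the same within both sets of arrays, but its size was not. Among the arrays without rpt, the substitution means were 16.3-fold below the double transformant for XTH33 and 15.3-fold below for EXLA1. Among the rpt arrays these ratios were 2.46 and 2.01. The null mutant against the double transformant gave -1.15 and -1.96 for XTH33, and -0.68 and -1.97 for EXLA1, with and without rpt in that order. The null mutant minus the substitution group was 0.07 for XTH33 between the rpt arrays and 1.76 between the others, and for EXLA1 0.31 and 1.82. With 1 rpt array a group these values have no error of their own. Within the double transformant, the night humidity of array 1 cannot be told apart from its rpt title, and the part of either in these values was not tested.

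The ratio of 3' to 5' signal of the GAPDH control, a measure of RNA quality, was highest on double transformant 3 (2.15) and null mutant 3 (1.95), against 1.38 to 1.82 on the other 7 arrays. Neither array was the highest or the lowest of its group for XTH33, and null mutant 3 was the highest of its group for EXLA1. Without these 2 arrays the difference between the substitution group and the double transformant was -2.78 for XTH33 and -2.90 for EXLA1.

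XTH33 and EXLA1 had like patterns across the arrays. Over the 9 arrays the log2 signals had a Pearson correlation of 0.96 and a Spearman correlation of 0.90, and both genes were chosen on the difference between groups. Taken as deviations from the group means, the correlations were 0.82 and 0.67. Both genes were also chosen for wide spread in the double transformant, and that spread enters these deviations. The order of the double transformant arrays (2, then 3, then 1) and of the substitution arrays (3, then 1, then 2) was the same for both genes. In the null mutant the order differed, with XTH33 highest on array 2 and EXLA1 highest on array 3.

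EXLA1 was the third most like XTH33 in its pattern, and XTH33 was the most like EXLA1. Likeness was the Pearson correlation over the 9 arrays among 5982 other probe sets with a single named gene and a mean above the median. The 5 most like XTH33 were AT1G35350 (0.96), AT4G16563 (0.96), EXLA1 (0.96), the beta-glucosidase gene BGLU16 (0.96) and AT3G60590 (0.95). The 5 most like EXLA1 were XTH33 (0.96), AT1G01540 (0.95), AT1G30690 (0.95), AT5G65380 (0.95) and AT5G57000 (0.95). For XTH33, 41 candidates exceeded 0.9 and 31 were under -0.9. For EXLA1 the counts were 32 and 27. The points share arrays and groups, so the correlations describe likeness of pattern only.

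The 8 like genes other than the pair had much of the array order of XTH33 and EXLA1 but smaller differences. They were picked for likeness over these same arrays, and the pair for the largest falls. Both traits therefore follow in part from the choices and only describe the genes. Double transformant 1 was the lowest double transformant array in 8 of 8, double transformant 2 the highest in 7 of 8, and substitution array 3 the highest substitution array in 7 of 8. Double transformant 1 lay above all arrays of both mutant groups in 3 of the 8. It did so for both XTH33 and EXLA1, which were chosen for their large falls. Of all probe sets, 8.6% were lower without overlap in the substitution group and 5.49% in the null mutant. The share with both was not computed. AT4G16563 came nearest in size, with 62.2 ± 8.05 in the null mutant, 35.6 ± 1.33 in the substitution group and 186 ± 78.3 in the double transformant (SD, n = 3 each). Its substitution arrays, at 34.1 to 36.5, were tight where those of XTH33 and EXLA1 were spread. AT1G35350 had means of 137 ± 48.6, 91.2 ± 18.7 and 301 ± 132 in the same order of groups. BGLU16 followed the pattern with a log2 difference of only -0.64 ± 0.18, and AT3G60590 with -0.21 ± 0.11.

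**Figure D2:**
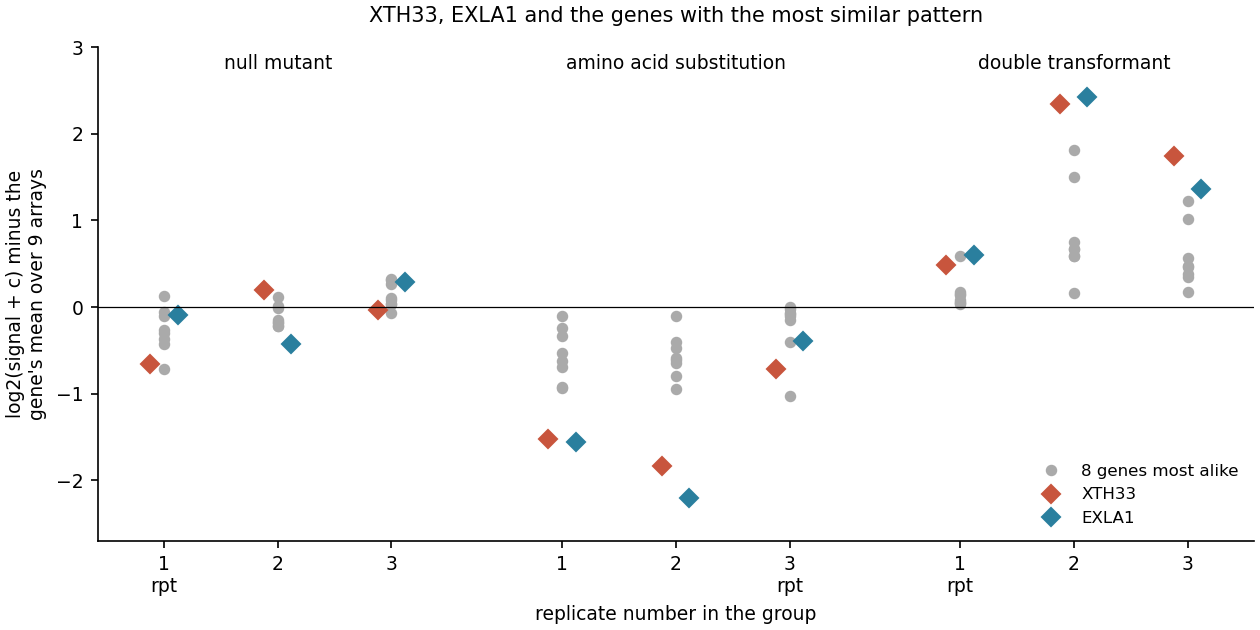
Deviation of each gene's log2(signal + c) from its own mean over 9 arrays (vertical axis) on each array (horizontal axis, replicate number within group, rpt marking the title), for XTH33 and EXLA1 (diamonds) and the 8 genes most alike (grey). The pair lies farthest from 0 on double transformant 2 and substitution array 2, and nearer to it on double transformant 1 and substitution array 3.

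Genes beside the pair on the chromosomes, taken in gene order from the RefSeq table of TAIR10.1, gave no call. Of all probe sets, 0.747% were called in the substitution group and 0.761% in the null mutant, so no call among so few loci says little. The group means of AT1G10530, AT1G10417 and AT3G45940 were below the offset c. Of the 3 nearest measured loci on each side of XTH33, log2 differences in the substitution group ran from -0.45 ± 0.38 for AT1G10417 to 0.21 ± 0.24 for AT1G10490 (limma adjusted p = 0.717 and 0.809). The neighbour AT1G10590 was at 765 in the substitution group and 725 in the double transformant. EXLA1 lies next to its relative EXLA3 in the order of measured loci, and EXLA3 averaged 4.02 in the substitution group and 7.87 in the double transformant (-0.60 ± 0.42, adjusted p = 0.636), near the offset c. HTB11, a histone H2B gene on the other side, differed by 0.08 ± 0.17 (adjusted p = 0.924). The neighbour farthest from 0 in the substitution group was AT3G45950, near EXLA1, at 0.79 ± 0.55 (adjusted p = 0.639). It was dim, with means of 8.3 in the substitution group and 3.35 in the double transformant. In the null mutant the neighbour farthest from 0 was AT1G10585 at -0.93 ± 0.41 (adjusted p = 0.429).

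None of the other XTH genes measured passed the test. XTH33 was chosen as the largest fall in the substitution group, so no relative could fall further there. In the null mutant XTH16, at -1.61 ± 0.72 (limma adjusted p = 0.435), was close to XTH33 at -1.69 ± 0.43. Of 33 XTH genes listed, 10 had a named probe set of their own, and 0 of the 9 besides XTH33 were called in the substitution group, where 0.747% of all probe sets were called (0.62% higher and 0.127% lower). The limma fit put 2 of the 9 lower at an unadjusted p under 0.05, against 11.8% of all probe sets in either direction. Their median log2 difference was -0.18, against 0.00 over all probe sets (-0.0031), with 7 of 9 below 0. In the null mutant 0 of 9 were called, against 0.761% of all probe sets (0.659% higher and 0.101% lower). There the median was -0.90, with 4 lower and 1 higher at an unadjusted p under 0.05, where 11.1% of all probe sets reached that level. Between the null mutant and the substitution group 0 of 9 were called, against 0.0396% of all probe sets (0.0352% higher and 0.0044% lower). There 1 of 9, XTH19, was lower in the null mutant at an unadjusted p under 0.05 (-0.73 ± 0.31), where 6.36% of all probe sets reached that level.

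In the substitution group, XTH16 and XTH27, listed as EXGT-A3, had the lowest differences after XTH33. XTH27 encodes another enzyme of the family, known from leaf vein development. Its probe set averaged 835 ± 262 in the null mutant, 752 ± 279 in the substitution group and 1631 ± 238 in the double transformant (SD, n = 3 each), and neither mutant group overlapped the double transformant. Its log2 differences were -1.01 ± 0.27 for the null mutant and -1.17 ± 0.27 for the substitution group (limma adjusted p = 0.156 and 0.0924).

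XTH16 spread even more widely than XTH33. Its signals were 37.7, 111 and 267 in the null mutant. They were 52.8, 71.3 and 223 in the substitution group and 140.3, 748 and 339 in the double transformant, replicates 1 to 3 in each. Its substitution difference was -1.75 ± 0.72 (adjusted p = 0.358), and the groups overlapped. Without the 3 rpt arrays XTH27 and XTH16 were called at -1.53 and -2.96 (adjusted p = 0.00375 and 0.00906), when 370 probe sets were called in all. Over the 9 arrays XTH27 correlated with XTH33 at 0.90 and XTH16 at 0.81.

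The remaining XTH genes were closer to 0 in the substitution group than XTH16 and XTH27, and none was called. XTH18 differed by -1.05 ± 0.58 for the null mutant and by -0.86 ± 0.58 for the substitution group, with signals under 50. XTH32 was the highest at 0.49 ± 0.24 and had a correlation of -0.65 with XTH33. XTH26 (0.05 ± 0.22) and XTH21 had signals of at most 1.34 on every array, below the offset c, so their differences carry little information. XTH20 differed by -0.03 ± 0.43, and XTH19 and XTH29 by -0.18 ± 0.31 and -0.30 ± 0.48. In the null mutant XTH19 differed by -0.90 ± 0.31 and XTH29 by -1.07 ± 0.48 (limma adjusted p = 0.279 and 0.443), so that XTH29 and XTH18 lay slightly below XTH27 there.

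Among the relatives of EXLA1, the changes called were rises of alpha-expansins, opposite in direction to EXLA1 itself. Of 36 expansin superfamily genes listed, 18 were measured: 10 alpha-expansins, 4 beta-expansins and 4 expansin-like genes. Besides EXLA1, 2 of 17 were called in the substitution group, both higher, and 1 of 17 in the null mutant, also higher. The share called higher among all probe sets was 0.659% for the null mutant and 0.62% for the substitution group. Between the mutants 0 of 17 were called, where 0.0396% of all probe sets were called. The median log2 difference of the 17 was 0.27 for the null mutant and 0.37 for the substitution group, where the medians over all probe sets were 0.02 and 0.00 (-0.0031). At an unadjusted limma p under 0.05, 6 of 17 were higher and 1 lower in the substitution group, against 11.8% of all probe sets. In the null mutant 5 of 17 were higher and 0 lower, against 11.1%. Between the mutants 3 of 17 were lower in the null mutant and 0 higher, against 6.36%.

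EXPA8, an alpha-expansin, rose in both mutant groups. Its signals were 450, 442 and 399.6 in the null mutant. They were 577, 547.5 and 553.5 in the substitution group, against 274, 129 and 157 in the double transformant, replicates 1 to 3 in each. No groups overlapped. The log2 differences from the double transformant were 1.26 ± 0.21 for the null mutant and 1.63 ± 0.21 for the substitution group (limma adjusted p = 0.0187 and 0.00459). The call in the null mutant was lost without null mutant 1 or 3 or double transformant 2 or 3, with adjusted p up to 0.104, and the call in the substitution group was kept without any single array. Without both arrays of highest GAPDH ratio, neither call of EXPA8 passed. Its log2 differences were then 1.23 for the null mutant and 1.55 for the substitution group (limma adjusted p = 0.221 and 0.0634). That fit called 57 and 73 probe sets in all, against 173 and 170 in the reported fit. The call of EXPA8 in the null mutant also failed without an intensity trend (adjusted p = 0.0932) or with only the 6 arrays of that comparison (adjusted p = 0.0907).

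EXPA9, a second alpha-expansin, rose in the substitution group. It had 93.5, 82.3 and 84.4 there, against 32.6, 20.8 and 27.0 in the double transformant, a log2 difference of 1.57 ± 0.20 (limma adjusted p = 0.00414). In the null mutant it had 45.4, 58.4 and 49.5, a difference of 0.85 ± 0.20 (adjusted p = 0.0961). The difference between the mutants was not called for EXPA8 (-0.38 ± 0.21, adjusted p = 0.837) or EXPA9 (-0.72 ± 0.20, adjusted p = 0.561).

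Across arrays these alpha-expansins ran against the pair. The correlation over the 9 arrays was -0.95 between EXPA8 and XTH33, and -0.91 between EXPA8 and EXLA1. EXPA9 gave -0.92 with XTH33 and -0.93 with EXLA1. Within the double transformant EXPA8 and EXPA9 were highest on array 1 and lowest on array 2, where XTH33 and EXLA1 were lowest and highest. These correlations are descriptions over arrays that also define the groups.

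The other expansins were not called. The beta-expansin EXPB3 averaged 98.7 ± 45.7 in the null mutant, 96.9 ± 14.5 in the substitution group and 40.9 ± 3.23 in the double transformant (SD, n = 3 each), with differences of 1.11 ± 0.26 and 1.16 ± 0.26 (adjusted p = 0.09 and 0.0724). EXPA4 (0.71 ± 0.19) and EXPA15 (0.81 ± 0.28) also stood above 0 in the substitution group without passing. EXPA7, known from root hairs, differed by -0.81 ± 0.39, at signals of at most 8.99. The other 8 alpha- and beta-expansins lay between -0.38 ± 0.41 for EXPB5 and 0.94 ± 0.35 for EXPB2.

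EXLA2, the closest relative of EXLA1 in name, had the pattern nearest to it among the measured expansins. Its signals were 30.0, 36.1 and 58.8 in the null mutant. They were 10.3, 2.11 and 63.1 in the substitution group and 29.4, 112 and 70.2 in the double transformant, replicates 1 to 3 in each. The groups overlapped, and its difference of -1.87 ± 0.72 in the substitution group was not called (adjusted p = 0.322). Without the 3 rpt arrays it was -3.31 (adjusted p = 0.0101), when 370 probe sets were called in all. That value rests on substitution arrays 1 and 2, at 10.3 and 2.11, and array 2 lay below the offset c. EXLA2 correlated with EXLA1 at 0.88, EXLA3 at 0.46 and EXLB1 at -0.29. EXLB1, the single expansin-like B gene, differed by 0.43 ± 0.32.

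**Figure D3:**
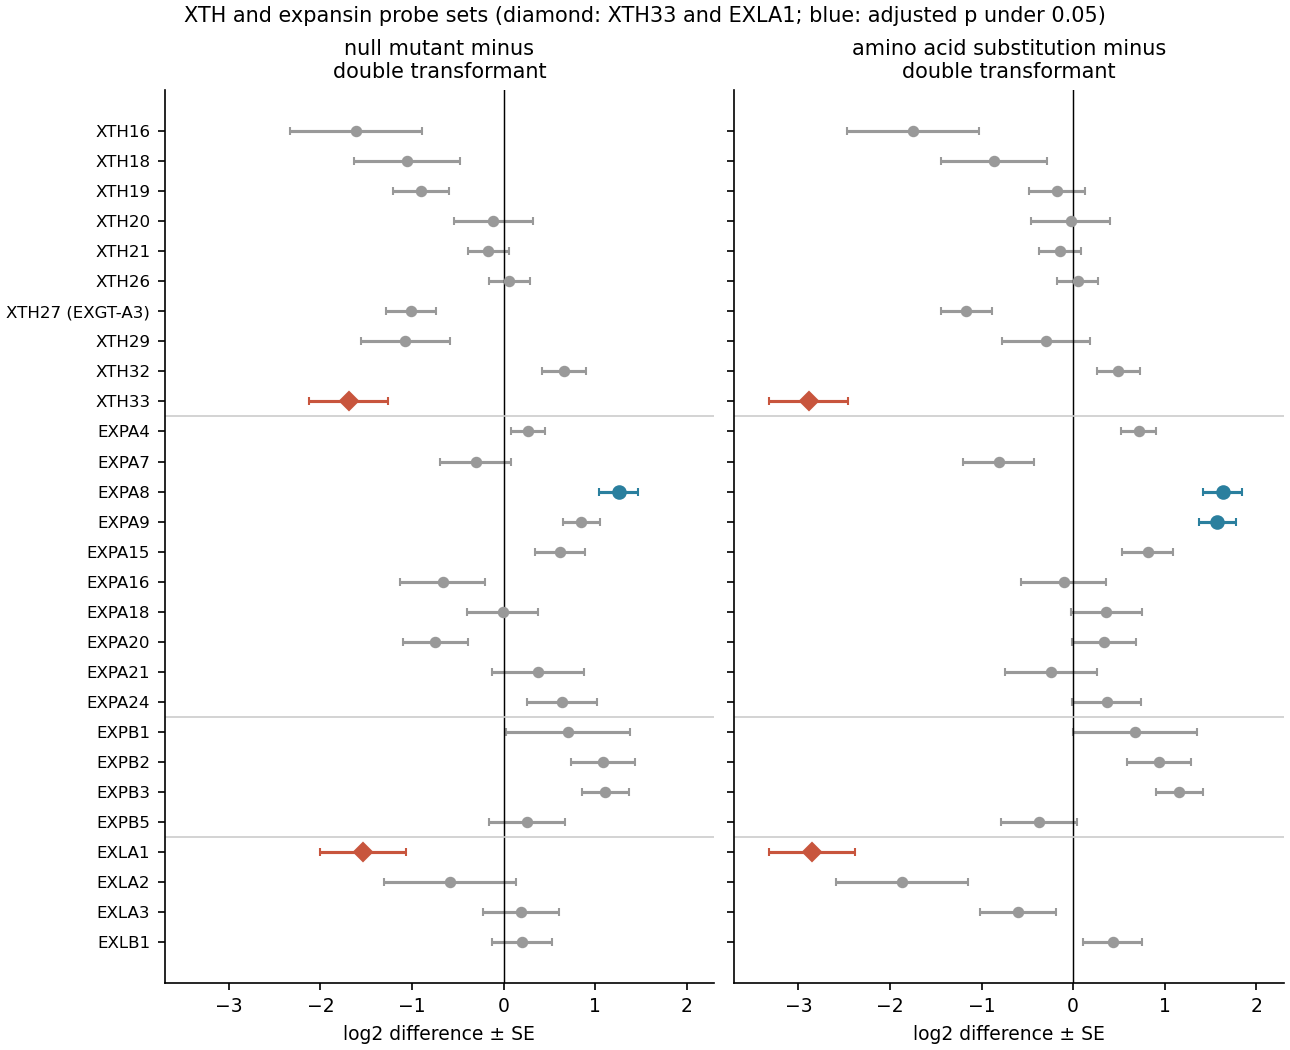
Log2 differences ± SE from the limma model for the 10 XTH genes and 18 expansin superfamily genes with a named probe set, in the null mutant (left) and the amino acid substitution group (right), each against the double transformant; grey lines separate XTH, alpha-expansin, beta-expansin and expansin-like genes. XTH33 and EXLA1 (diamonds) lie farthest to the left in the substitution group at -2.89 and -2.85, and the called genes EXPA8 and EXPA9 (blue) lie to the right of 0.

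Genes around the pair in wall synthesis and growth control gave no call, 0 of 15 measured in each comparison. Of all probe sets, 0.761% were called for the null mutant, 0.747% for the substitution group and 0.0396% between the mutants. In the limma fit of the substitution group 3 of 15 had an unadjusted p under 0.05, against 11.8% of all probe sets. Among these 3, CSLC4, the gene of a glucan synthase that makes the xyloglucan backbone, was lower in the substitution group (-1.01 ± 0.43, adjusted p = 0.384), and IAA29 and GID1B were higher. CSLC4 correlated with XTH33 at 0.77, and without the 3 rpt arrays its difference was -1.64 (adjusted p = 0.049), when 370 probe sets were called in all. CSLC6 differed by -0.23 ± 0.21. Of the pectin list, the pectin methylesterase gene PME61 differed by -0.05 ± 0.45 and the polygalacturonase gene ADPG1 by -0.05 ± 0.51.

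Hormone and touch response genes were few. IAA29, an auxin-induced repressor gene, had a substitution difference of 1.44 ± 0.56 (adjusted p = 0.33) and HAT2 one of -0.31 ± 0.21. The gibberellin receptor genes GID1B and GID1A differed by 0.81 ± 0.34 and 0.22 ± 0.20. Double transformant 3, the array with the highest GAPDH ratio (2.15), was the lowest of its group for both IAA29 and GID1B. Its signals were 2.6 and 9.38, against 38.1 and 32.2 on double transformant 1 and 29.6 and 26.2 on double transformant 2. The single touch response gene measured, STZ (ZAT10), ranged from 28.4 to 33.7 in the null mutant, from 60.8 to 580 in the substitution group and from 30.6 to 109 in the double transformant, with a substitution difference of 1.28 ± 0.65 (adjusted p = 0.481). The lists for cellulose synthesis, xyloglucan trimming, wall glycoproteins, dark and sugar starvation, and secondary wall had no named probe set here.

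Markers of plant parts were checked beside these values, since whole plants mix many tissues. The leaf marker RCA, the activase of carbon fixation, was bright on all arrays, from 4120 to 7420 in the null mutant, from 4590 to 6310 in the substitution group and from 4840 to 8540 in the double transformant. It was the 1 measured of 14 leaf markers and differed by -0.24 ± 0.29 in the substitution group (limma adjusted p = 0.83). Of 10 root markers 2 were measured, EXPA7 and EXPA18, and their summed signal was 4.14 to 15.5, 3.17 to 9.48 and 5.05 to 14.0 in the same order of groups, near background. Root content could therefore hardly be read.

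Some marker lists had sums that did not overlap between the substitution group and the double transformant, although no marker passed the test. Of all single probe sets, 19.2% did not overlap in this comparison, and no such share was computed for sums. The guard cell list (SPCH, MUTE and FAMA, 3 of 6 measured) summed to 52.6 to 70.4 in the null mutant, 71.5 to 87.7 in the substitution group and 43.7 to 54.8 in the double transformant. SPCH, which starts the stomatal lineage, had a substitution difference of 1.52 ± 0.40 (adjusted p = 0.124), and FAMA one of 0.41 ± 0.20. SPCH was dim on double transformant arrays 1 to 3, at 2.88, 4.7 and 11.6, with the lowest below the offset c. The seed storage gene PAP85, 1 of 10 seed markers, ranged from 31.5 to 146 in the null mutant, from 71.4 to 122 in the substitution group and from 4.65 to 34.7 in the double transformant, and differed by 2.37 ± 0.55 (adjusted p = 0.0901). The senescence markers WRKY53 and SAG101, 2 of 6, summed to 32.8 to 43.2, 50.0 to 63.6 and 28.4 to 35.6 in the same order of groups, and differed by 1.84 ± 0.47 and 0.17 ± 0.28. WRKY53 had only 2, 4.38 and 2.59 on double transformant arrays 1 to 3, near the offset c of 4.03. Of 8 pollen and tapetum markers 4 were measured, with summed signals of 2.73 to 13.0, 3.22 to 9.69 and 6.28 to 38.0 in that order of groups, and SHT and ANX2 differed by -1.49 ± 0.53 and -0.87 ± 0.39. The other pollen and tapetum markers, ANX1 and AMS, differed by -0.08 ± 0.24 and 0.20 ± 0.43. The flower gene UFO, 1 of 8, ranged from 2.58 to 11.8, from 1.07 to 4.35 and from 0.779 to 1.91 in that order, and differed by 0.27 ± 0.36. The part of these tissues in the levels of XTH33 and EXLA1 was not tested.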

How the data were processed

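Single-colour Affymetrix ATH1 arrays were used, with biotin label and a kit for 3' in vitro transcription, per the labels. The deposited intensity values are MAS5 signals on a linear scale. Per the submitters' processing notes the tools were MAS5 and GCOS; their versions are not given in the sources used here. Depth has no meaning for arrays, and their number limits the precision.

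Groups came from the sample titles. Of 22810 probe sets, 64 controls were left out. Symbols of the platform's own, older annotation were brought up to date by identifier from RefSeq (TAIR10.1), whose table served for names and gene order alone: 13513 probe sets had 1 gene, 503 several and 8730 none. Differences were fitted with limma 3.58.1 under R 4.3.3 (1 mean per group, empirical Bayes with intensity trend, Benjamini-Hochberg), on a script tested on simulated data. In those data 32% of log2 changes of 1 and 62% of log2 changes of 2 were called. A missing call here therefore does not show that a gene was unchanged. The genes and lists were chosen with earlier results of these data known. In the XTH and expansin families, called genes and the 3 lowest and 3 highest differences were named; in other lists, up to 4 called genes or the 2 with the smallest p; and further the next 3 called falls, the 5 most alike and the 3 nearest measured loci on each side. Other family members were named after their values were seen. Alternatives were other offsets, a filter on dim sets, normalizations, variance priors, weights, blocks, and fits without single or doubted arrays.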

Additional observations from a re-analysis of the deposited data

How the results depend on the processing

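The log2 differences of XTH33 and EXLA1 in the 3 comparisons kept their direction in all 126 values under the alternatives. Both genes were chosen on the substitution comparison, and the other comparisons share its arrays, so the kept direction is no independent support. The SD used to judge a move was the gene's own spread between arrays within the 2 groups compared. Wide spread in the double transformant was part of the choice, so a low count of moves follows in part from it. Of the 126 values, 3 moved by more than 1 SD. All 3 came from the fit without the rpt arrays, at -3.72 for XTH33 and -3.78 for EXLA1 in the substitution group against the double transformant, and 1.76 for XTH33 in the null mutant minus the substitution group. Leaving out single arrays gave -3.40 to -2.48 for XTH33 and -3.35 to -2.37 for EXLA1 in the substitution group, -2.21 to -1.28 and -1.97 to -1.06 in the null mutant, and 0.96 to 1.52 and 0.90 to 1.81 between the mutants. Same-numbered arrays correlated in their deviations at -0.0409 to 0.154, with 1 of 9 pairs over 0.1, and equal numbers were not taken to pair arrays. With the replicate block, which left the differences of XTH33 and EXLA1 at -2.89 and -2.85, 1 other XTH gene (XTH27, adjusted p = 0.0442) was called in the substitution group, and 321 probe sets in all against 170.

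Other XTH genes called in the substitution group against the double transformant numbered 2 without the rpt arrays and 1 at an adjusted p under 0.1 (370 and 328 probe sets called in all), and 0 to 1 without single arrays, the 1 being XTH27 without null mutant 1. Expansins besides EXLA1 numbered 4 with array weights (373 in all), 1 without the 2 arrays of highest GAPDH ratio (73 in all), and 2 to 3 without single arrays. In the null mutant, with 173 probe sets called in all in the reported fit, they numbered 0 without an intensity trend (113 in all), 0 with only the 6 arrays compared (58 in all), 0 without the arrays of highest GAPDH ratio (57 in all), 3 at an adjusted p under 0.1 (303 in all) and 0 to 1 without single arrays. In wall and growth lists 1 gene, CSLC4, was called without the rpt arrays. Of 207 counts, 192 were unchanged or stayed within 1.5 times, but most of these were 0 in the reported fit and stayed 0. The count of 2 expansins in the substitution group stayed within 1.5 times in 21 of 23 alternatives. The count of 1 in the null mutant did so in 15 of 23. Of the 370 calls without the rpt arrays, 195 were lower. The cause of these changes was not tested. Dim signals limit what can be read of XTH21, XTH26, EXLA3 and the root and pollen markers, and in part of EXLA2, WRKY53 and SPCH.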
